A study of Mus musculus with 6 samples.

Results

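The change that went with loss of the tumor suppressor Tsc2 was set, gene by gene, against the change that went with rapamycin. The loss change was the difference in log2(TPM + 1), where TPM is the deposited, length-corrected abundance summed over the transcripts of a gene symbol, between 1 library of Tsc2-/- mouse embryo fibroblasts (MEFs) and 1 library of Tsc2+/+ MEFs. Before the difference was taken, the TPM of Tsc2-/- MEFs were divided by 1.31, the median ratio of the MEF libraries over 7377 symbols with at least 10 TPM in both. The rapamycin change was the mean over the kidney epithelial cell lines MKOC and TJ of the same difference between rapamycin and untreated cells. All symbols with at least 5 TPM in at least 1 MEF library and in at least 1 kidney library were compared, which gave 9423 of 30281 symbols. Another 1140 symbols reached this floor only in MEFs and 873 only in the kidney lines.

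Both MEF genotypes were also p53-/- and were labelled as not treated. MKOC and TJ were labelled Tsc2-null, and TJ were derived from a secondary tumor of C57BL6 mice. Each line was given 100 nM rapamycin or was left untreated, and the labels of all 6 libraries carry the same protocol, 18 hr of treatment in serum-free medium with 0.1% BSA. Whether the MEFs, labelled as not treated, were kept in that medium is not given in the sources used here. Neither the clone number of a line nor its promoter or Cre is given in the sources used here. No MEF library was treated with rapamycin and no kidney library was Tsc2-wild-type, so tissue, p53 genotype and line cannot be told apart from the contrast each change rests on. The changes share no library. The loss change has no replicate and carries no p-value. The rapamycin change has the 2 lines as its replicates, and a gene was called higher or lower at a Benjamini-Hochberg adjusted p under 0.05 in edgeR's quasi-likelihood test on estimated counts, with the line as a block. With the line as a block, the p-values rest on how alike the rapamycin change was in the 2 lines, with a variance partly shared across genes. The labels do not say whether the libraries of a line came from separate cultures, so the spread between repeat cultures is not known.

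The proteins TSC1 and TSC2 form a complex that holds the small GTPase Rheb inactive, and active Rheb switches on the kinase complex mTORC1. mTORC1 raises translation of ATF4 and of HIF1A, and through these and other factors it raises transcription of genes for amino acid supply, glycolysis and lipid synthesis. Rapamycin, bound to FKBP12, inhibits mTORC1 in part. A gene driven by mTORC1 would be raised by Tsc2 loss and lowered by rapamycin, which is the question this pair of contrasts addresses.

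Tsc2 itself (chr17:24595816-24632630, minus strand, GRCm38) was at 22.6 TPM in Tsc2+/+ MEFs against 10.5 TPM in Tsc2-/- MEFs. In the kidney lines labelled Tsc2-null it had 49.1 TPM in untreated MKOC and 44.0 TPM in untreated TJ, against 19.5 and 19.1 TPM with rapamycin. Tsc2 RNA was therefore lower in the null than in the wild-type MEFs but not absent from any library, and the values per gene do not show whether the transcripts are intact. The fall with rapamycin was 1.27 ± 0.10 on the log2 scale (2 lines, edgeR adjusted p = 2.28e-05), so that Tsc2 was among the genes lower in both contrasts. Here and below ± is an SE worked back from the edgeR test, as the log2 change divided by the square root of its F statistic.

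Estimated counts were 22887020 to 37505004 per library. Transcripts that are mitochondrial or shorter than 300 bases took 25.8% of TPM in Tsc2+/+ and 13.4% in Tsc2-/- MEFs. They took 7.05% and 11.3% in untreated MKOC and TJ, and 14.1% and 15.0% with rapamycin. Of 12 epithelial markers, the kidney libraries expressed Cdh1, Krt7, Krt8, Krt18, Cldn3, Cldn4, Pax2 and Pax8, whereas Epcam and Cldn7 were at or near 0. The epithelial sum was 1346 and 1328 TPM in untreated MKOC and TJ and 2137 and 2248 TPM with rapamycin. Krt19 was at 0.393 to 0.800 TPM in the kidney libraries, and at 55.6 TPM in Tsc2-/- MEFs against 0.0506 TPM in Tsc2+/+ MEFs, and the epithelial sum in these MEFs was 86.0 and 0.429 TPM. The summed level of 9 fibroblast markers was 3620 TPM in Tsc2-/- against 5346 TPM in Tsc2+/+ MEFs, and 3617 to 7575 TPM in the kidney libraries, where Vim alone gave 3609 to 7523 TPM. This sum was 4703 and 3617 TPM in untreated MKOC and TJ and 7575 and 5305 TPM with rapamycin. In Tsc2+/+ and Tsc2-/- MEFs Vim was at 3522 and 1118 TPM, Col1a1 at 274 and 474 TPM, Col1a2 at 996 and 788 TPM, Pdgfrb at 33.0 and 23.2 TPM and Dcn at 7.08 and 422 TPM. Both collagen genes were under 1 TPM in every kidney library. Tsc2-/- MEFs also held markers of mesothelial cells, the lining cells of body cavities, at a sum of 484 TPM over 8 genes against 2.84 TPM in Tsc2+/+ MEFs, and Upk3b was at 154 TPM and 0 TPM. The mesothelial sum was 80.3 and 70.3 TPM in untreated MKOC and TJ and 151 and 98.5 TPM with rapamycin. Only 1 of 8 mesothelial, 2 of 12 epithelial and 2 of 9 fibroblast markers reached the floor in both MEFs and kidney lines and were compared. Upk3b and Krt19 were among those left out, and such markers could not count as changed in both contrasts. Of the compared markers only Krt7 changed 2-fold in both contrasts, and the part of mesothelial RNA in the loss change was not tested. In bulk RNA, fewer cells of a type and less RNA per cell cannot be told apart.

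Genes that moved in opposite directions included targets of known regulators, and 6 of their promoters are shown because they hold the letters of the binding site of such a regulator. Each run is the 250 bases before a RefSeq transcription start (GRCm38.p6), written 5′ to 3′ on the strand of the gene, with the motif in capitals. For Slc16a3 and Egln3, higher in Tsc2-/- MEFs and lower with rapamycin, the capitals mark the core of the hypoxia response element, ACGTG.
Slc16a3, chr11:120948817-120949066, plus strand: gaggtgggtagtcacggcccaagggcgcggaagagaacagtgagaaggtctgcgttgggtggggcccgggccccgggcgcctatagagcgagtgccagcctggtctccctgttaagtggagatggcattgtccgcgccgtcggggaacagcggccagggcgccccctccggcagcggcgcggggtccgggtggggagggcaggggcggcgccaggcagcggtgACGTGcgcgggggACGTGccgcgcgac
Egln3, chr12:54203875-54204124, minus strand: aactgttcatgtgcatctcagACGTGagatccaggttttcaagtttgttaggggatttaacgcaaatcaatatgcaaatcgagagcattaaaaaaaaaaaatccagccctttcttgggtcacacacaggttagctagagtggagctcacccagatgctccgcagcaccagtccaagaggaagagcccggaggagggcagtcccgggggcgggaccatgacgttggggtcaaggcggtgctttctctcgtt
For Vldlr and Fgf21, of the same class, the capitals mark the C/EBP-ATF composite element TGATGCAA, the site of ATF4 with a C/EBP partner, here on the opposite strand. The Fgf21 run also holds the hypoxia core, left in lower case, on both strands at positions -50 and -49 from the start. The Vldlr run was chosen because it holds the element, and it precedes a RefSeq start inside the gene. The window at the start of the gene lacks the element and holds a match to the interferon element shown next.
Vldlr, chr19:27216770-27217019, plus strand: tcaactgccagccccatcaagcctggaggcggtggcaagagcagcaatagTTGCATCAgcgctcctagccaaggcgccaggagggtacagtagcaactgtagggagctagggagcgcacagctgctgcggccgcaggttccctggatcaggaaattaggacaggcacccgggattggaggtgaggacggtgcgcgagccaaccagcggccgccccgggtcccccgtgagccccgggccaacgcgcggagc
Fgf21, chr7:45615491-45615740, minus strand: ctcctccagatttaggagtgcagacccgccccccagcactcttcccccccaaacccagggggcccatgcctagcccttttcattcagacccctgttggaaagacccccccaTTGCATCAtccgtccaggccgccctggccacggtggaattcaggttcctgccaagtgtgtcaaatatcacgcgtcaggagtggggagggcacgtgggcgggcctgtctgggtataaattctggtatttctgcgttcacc
For Gbp2 and H2-T23, lower in Tsc2-/- MEFs and higher with rapamycin, the capitals mark the interferon-stimulated response element, GAAA and GAAA set 2 bases apart, on the opposite strand.
Gbp2, chr3:142620413-142620662, plus strand: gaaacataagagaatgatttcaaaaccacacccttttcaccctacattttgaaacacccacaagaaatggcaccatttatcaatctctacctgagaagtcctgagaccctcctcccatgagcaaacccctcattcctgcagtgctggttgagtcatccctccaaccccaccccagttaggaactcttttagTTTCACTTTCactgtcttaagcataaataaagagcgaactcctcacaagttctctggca
H2-T23, chr17:36032702-36032951, minus strand: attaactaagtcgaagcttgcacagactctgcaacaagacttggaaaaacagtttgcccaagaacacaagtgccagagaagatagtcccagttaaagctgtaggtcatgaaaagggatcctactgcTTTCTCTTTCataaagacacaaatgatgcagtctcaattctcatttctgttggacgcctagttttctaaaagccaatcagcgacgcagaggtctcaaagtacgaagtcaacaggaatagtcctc
All motifs were searched on both strands of the 300 bases from 250 before to 50 after each start, and matches of different motifs did not overlap in the runs shown. The hypoxia core was in 21.8% of all genes with a RefSeq promoter, the C/EBP-ATF element in 1.03% and the interferon element in 3.99%. Among the compared genes with a promoter these shares were 31.1%, 0.676% and 3.71%. In the gene lists described below, the hypoxia core was in 14 of 21 glycolysis promoters (66.7%) and in 11 of 14 promoters of the hypoxia list (78.6%). The C/EBP-ATF element was in 5 of 14 promoters of the ATF4 list (35.7%), and the interferon element in 10 of 20 of the interferon list (50%). These lists were drawn up from known targets, so such shares describe the lists and are not evidence from the libraries. A promoter was found for 20 of the 32 genes and 31 of the 46 genes in the opposed classes below, under 80%, which makes shares over those classes void.

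Over all compared genes, the contrasts were close to unrelated. Pearson's r between the loss change and the rapamycin change was -0.03 and Spearman's rho was -0.05 over 9423 genes. The loss change had r = -0.08 with the rapamycin change in MKOC and r = 0.04 with that in TJ, whereas the rapamycin changes of the lines had r = 0.72 with each other. These values are across genes, which are not independent replicates. Signs were opposed for 52.9% of the compared genes and for 54.2% of the 3683 compared genes called with rapamycin. The background of calls was 17.5% higher and 21.6% lower among the 9409 compared genes that the edgeR fit tested, and 14 genes were not tested. Without the line in the fit, 1123 compared genes were called.

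In Tsc2-/- MEFs 1062 genes (11.3% of those compared) were at least 2-fold higher and 575 (6.1%) at least 2-fold lower on the log2(TPM + 1) scale. This split depended on the scaling: without it 1976 were higher and 279 lower, so that the share of higher among changed genes was 87.6% and not 64.9%. Of the genes raised with loss that were tested, 19.1% (201 of 1054) were called lower with rapamycin, below the background of 21.6%, and 24.6% (259) were called higher, above 17.5%. The first of these turned with the call rule: of the same genes 3.42% were called lower at 2-fold or more, above the background of 1.96%. Of the genes lowered with loss, 30.5% (174 of 570) were called higher with rapamycin, above the background of 17.5%, and 14.0% (80) were called lower. Without the line in the fit the share of loss-raised genes called lower was 5.79%, beside a background of 7.17%, and the share of loss-lowered genes called higher was 8.60%, beside 4.76%.

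The share called higher was larger at both ends of the loss change than in the middle. Among tested genes with a loss change of at most -2, 37.0% (44 of 119) were called higher with rapamycin and 9.24% lower. Among those between -0.5 and 0.5, 14.0% were called higher and 23.6% lower. Among those of at least 2, 34.7% (109 of 314) were called higher and 18.2% lower. Genes at the ends were expressed less: the median of the mean TPM over the kidney libraries was 16.6, 33.8 and 21.6 in these bins, and the part of expression level in the shares was not tested.

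**Figure D1:**
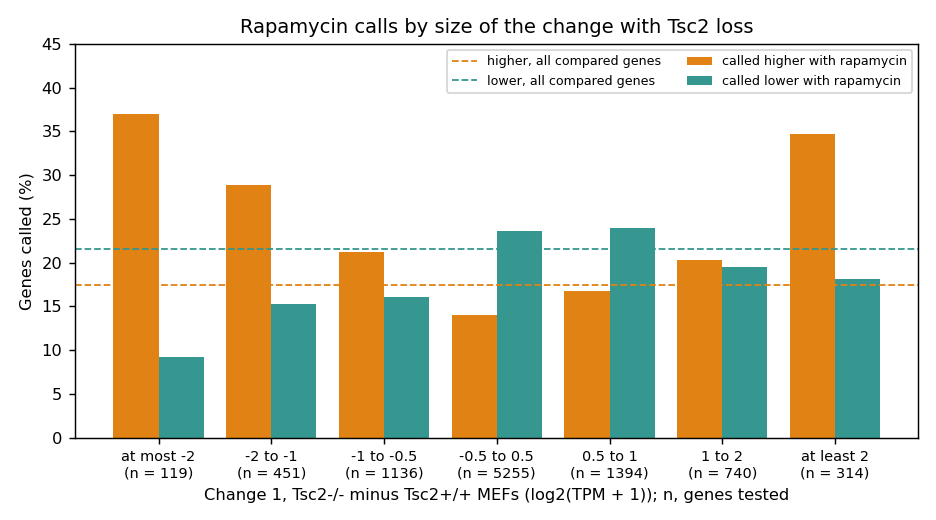
Bars give the percent of tested genes called higher (orange) or lower (green) with rapamycin by edgeR in each bin of the loss change (x axis, difference in log2(TPM + 1) between Tsc2-/- and Tsc2+/+ MEFs), and dashed lines give the percent over all compared genes, 17.5% and 21.6%. The share called higher was 37.0% and 34.7% in the outermost bins and 14.0% in the middle one, whereas the share called lower was smallest, 9.24%, among the genes most reduced with loss.

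At 2-fold or more in both contrasts, 78 genes were opposed and 66 moved the same way. Of the opposed genes, 32 were up with loss and down with rapamycin (29 called lower) and 46 were down with loss and up with rapamycin (43 called higher). Of the others, 52 were up in both (48 called higher) and 14 down in both (12 called lower). The classes and the calls use the same kidney libraries, so the calls add no support to the classes. Among genes under 2-fold with loss, 94 of 96 with a rapamycin change of at least 1 were called higher. Of those with a change of -1 or less, 116 of 117 were called lower. A rapamycin change of at least 1 was found in 2.06% of all compared genes, in 4.90% of genes raised with loss and in 8% of genes lowered with loss. Calls in the edgeR fit that were also at least 2-fold made up 2.39% (higher) and 1.96% (lower) of the compared genes tested. A change of -1 or less was found in 1.73% of all compared genes, in 3.01% of genes raised with loss and in 2.43% of genes lowered with loss. Without scaling of the MEF libraries, 48 genes were up with loss and down with rapamycin and 37 the reverse, and the order of these classes also turned with a pseudocount of 5 TPM (18 and 15 genes) and a floor of 20 TPM (19 and 16). That opposed genes outnumbered the others also turned, with 74 against 77 in TJ alone. With MKOC alone the opposed classes held 41 and 56 genes, and with TJ alone 29 and 45. Without the line in the fit, 21 of the 29, 22 of the 43, 39 of the 48 and 10 of the 12 calls remained.

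The floor of 5 TPM bore on the classes. Over all 9423 compared genes, 201 reached it in the kidney lines only with rapamycin and 74 only untreated. In the MEFs 752 reached it only in Tsc2-/- and 175 only in Tsc2+/+ cells. Of the 46 genes down with loss and up with rapamycin, 19 reached it only in rapamycin-treated kidney libraries and 19 only in Tsc2+/+ MEFs. Of the 32 genes of the reverse class, 8 reached it only in untreated kidney libraries and 15 only in Tsc2-/- MEFs, so such genes had to differ. Of the 52 genes up in both, 29 reached it only in Tsc2-/- MEFs and 10 only with rapamycin, and of the 14 down in both, 5 only in Tsc2+/+ MEFs and 1 only in untreated kidney libraries. Genes named below that reached the kidney floor only with rapamycin include Gbp2, Il1rl1, Tcp11l2, Bmp4, Smpd3, Kank3, Egfr and Deptor. Those that reached it only untreated include Fgf21, P2rx3 and Cox6a2. The floor favoured a change in such genes, so their rapamycin changes and p-values are not separate support. Gm9027 and Syne1 lay just inside the floor at 5.001 and 5.013 TPM, and Serpinb9b and Oas2 just outside at 4.993 and 4.997 TPM. Lrrc59 was just inside the class up with loss and down with rapamycin, with its smaller change at 1.02, and Bnip3, a mitophagy receptor, just outside at 0.999. Hbp1 was just inside the reverse class at 1.002 and Zfp358 just outside at 0.98. Predicted genes, pseudogenes, mitochondrial and ribosomal protein genes are included in these counts and are not named below.

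**Figure D2:**
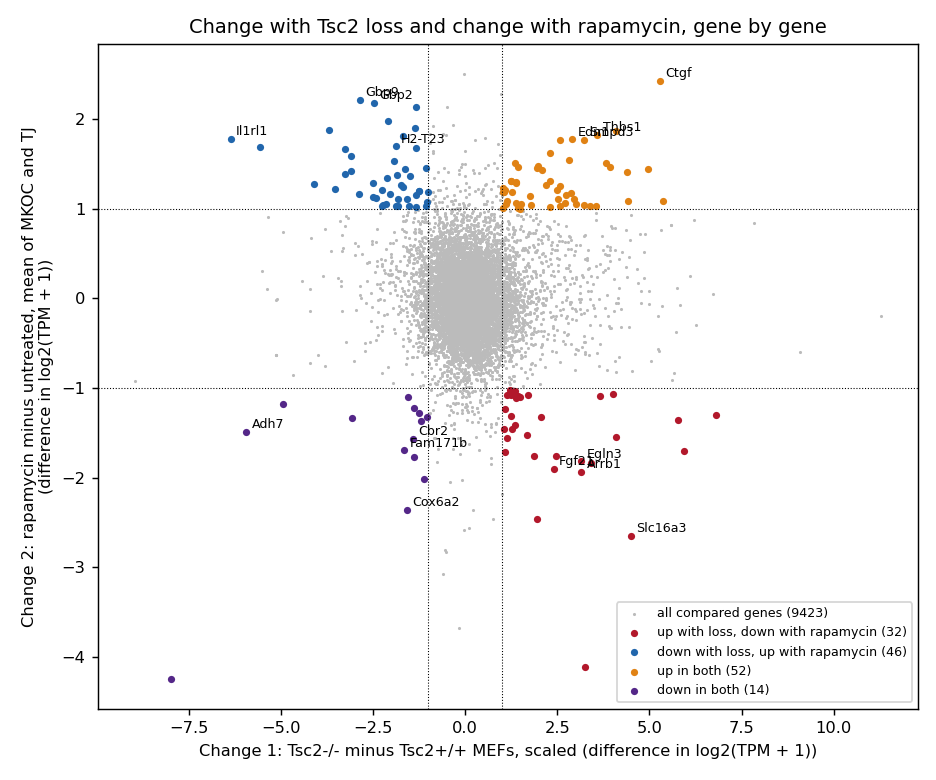
Each point is 1 of 9423 compared genes, with the loss change on the x axis and the rapamycin change on the y axis, both as differences in log2(TPM + 1), and dotted lines mark 2-fold. The cloud has no slope (r = -0.03), and the coloured corners hold 32 genes up with loss and down with rapamycin, 46 of the reverse, 52 up in both and 14 down in both.

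Among the genes up with loss and down with rapamycin, those with the largest changes included genes of lactate export, oxygen sensing and stress. Slc16a3, which encodes the lactate exporter MCT4 (chr11:120948480-120960868, GRCm38), had 0.723 TPM in Tsc2+/+ MEFs against 49.5 TPM in Tsc2-/- MEFs. It had 31.5 and 29.5 TPM in untreated MKOC and TJ, and 1.73 and 8.21 TPM with rapamycin. Its loss change was 4.49, and it fell by 2.83 ± 0.38 on the log2 scale with rapamycin (edgeR adjusted p = 0.000449). The fall was larger in MKOC than in TJ, and the call was lost without the line in the fit.

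Egln3, the oxygen sensor PHD3 that marks HIF proteins for decay (chr12:54178981-54203860), was listed at 0 in Tsc2+/+ MEFs against 10.3 TPM in Tsc2-/- MEFs, at least 205-fold higher after scaling against a floor of 3 counts in the library. It had 60.0 and 89.4 TPM in untreated MKOC and TJ and 16.3 and 24.6 TPM with rapamycin, a fall of 1.88 ± 0.11 (edgeR adjusted p = 5.03e-06). Ddit4, which encodes the mTORC1 inhibitor REDD1 (chr10:59949669-59951834), had 21.2 and 104 TPM in Tsc2+/+ and Tsc2-/- MEFs, 95.03 and 138 TPM in untreated MKOC and TJ, and 20.8 and 52.5 TPM with rapamycin. An inhibitor of mTORC1 thus followed the same course as the genes for lactate export and oxygen sensing, although its call was lost without the line.

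Vldlr, a lipoprotein receptor (chr19:27216484-27254231), had 1 count in Tsc2+/+ MEFs (0.00406 TPM) against 79.0 TPM in Tsc2-/- MEFs. The ratio after scaling was 14835, with a 95% interval of 2661 to 586091 that covers counting error only. In MKOC and TJ it had 125 and 151 TPM untreated and 36.5 and 47.3 TPM with rapamycin, a fall of 1.67 ± 0.11 (edgeR adjusted p = 7.89e-06). The named genes of a class were chosen for their rapamycin change, so a gap between treated and untreated libraries is no further support. Fgf21, a stress hormone that acts on energy metabolism (chr7:45613886-45615490), had 3.76 and 31.6 TPM in the MEFs, 5.47 and 5.26 TPM in untreated MKOC and TJ, and 0.600 and 0.813 TPM with rapamycin. Nupr1, a stress-induced chromatin protein, had 133 and 383 TPM in the MEFs, 85.4 and 101 TPM in the untreated lines, and 31.4 and 30.2 TPM with rapamycin. These 3 are targets of ATF4.

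Arrb1, which encodes beta-arrestin 1 (chr7:99535466-99606771), had 0.0638 and 11.1 TPM in Tsc2+/+ and Tsc2-/- MEFs, 20.8 and 34.3 TPM in untreated MKOC and TJ, and 4.001 and 9.52 TPM with rapamycin. P2rx3, an ATP-gated ion channel (chr2:84998583-85037462), had 11.7 and 89.6 TPM in the MEFs, 21.3 and 13.6 TPM in the untreated lines, and 4.51 and 4.13 TPM with rapamycin. Il1rn, the antagonist of the interleukin-1 receptor (chr2:24336853-24351494), had 14.2 and 337 TPM in the MEFs, 55.7 and 56.6 TPM in the untreated lines, and 20.8 and 16.4 TPM with rapamycin. The falls of Arrb1, P2rx3 and Il1rn with rapamycin were 2.002 ± 0.12, 2.09 ± 0.23 and 1.56 ± 0.13 (edgeR adjusted p = 5.03e-06, 0.00014 and 3.32e-05). The class also held Vegfa, the growth factor of blood vessels, with a loss change of 1.06 and a rapamycin change of -1.46, and Cdkn1a, the cell cycle inhibitor p21, at 1.09 and -1.23. Igfbp4, an IGF-binding protein, was at 3.66 and -1.09, and Slc7a3, a transporter of cationic amino acids, at 5.77 and -1.36.

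**Figure D3:**
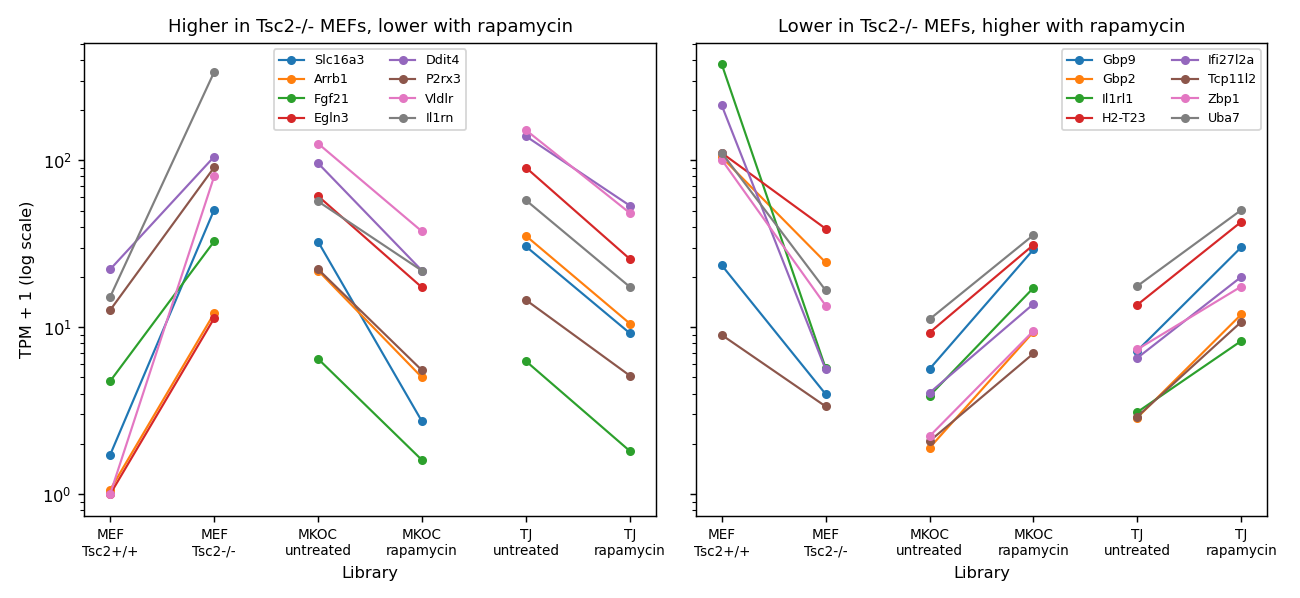
TPM + 1 (y axis, log scale) in each of the 6 libraries (x axis) for the 8 named genes of each opposed class, 1 colour per gene, with lines joining the Tsc2+/+ and Tsc2-/- MEFs and the untreated and rapamycin-treated library of each line. On the left Vldlr went from 0.00406 to 79.0 TPM with loss and from 125 to 36.5 TPM with rapamycin in MKOC. On the right Il1rl1 went from 375 to 4.69 TPM with loss and from 2.88 to 16.2 TPM with rapamycin in MKOC.

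Among the genes down with loss and up with rapamycin, those with the largest changes included several genes known to be induced by interferon. Gbp9 (chr5:105077630-105139539), a guanylate-binding GTPase of antimicrobial defence, had 22.5 and 2.97 TPM in Tsc2+/+ and Tsc2-/- MEFs, 4.62 and 6.24 TPM in untreated MKOC and TJ, and 28.2 and 29.1 TPM with rapamycin. Gbp2 (chr3:142620602-142638008), of the same family, had 103 and 23.4 TPM in the MEFs, 0.892 and 1.87 TPM in the untreated lines, and 8.37 and 10.9 TPM with rapamycin. They rose by 2.40 ± 0.14 and 2.93 ± 0.24 on the log2 scale (edgeR adjusted p = 5.39e-06 and 2.89e-05). Gbp2 reached the floor in the kidney lines only with rapamycin. Guanylate-binding proteins and the H2 genes have close paralogs, so how reads were divided among them is uncertain.

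H2-T23 (chr17:36029773-36032855), a nonclassical major histocompatibility protein, had 110 and 37.9 TPM in the MEFs, 8.29 and 12.6 TPM in untreated MKOC and TJ, and 30.1 and 41.8 TPM with rapamycin. Uba7 (chr9:107975505-107984060), the enzyme that activates ISG15 for conjugation, had 110 and 15.6 TPM in the MEFs, 10.2 and 16.7 TPM in the untreated lines, and 34.6 and 49.4 TPM with rapamycin. Both rose with rapamycin, by 1.79 ± 0.13 and 1.71 ± 0.11 (edgeR adjusted p = 1.79e-05 and 1.04e-05). Zbp1 (chr2:173206612-173218923), a sensor of Z-form nucleic acid, had 99.7 and 12.5 TPM in the MEFs, 1.22 and 6.37 TPM in the untreated lines, and 8.50 and 16.5 TPM with rapamycin. Ifi27l2a (chr12:103442167-103443680), an interferon-induced gene, had 212 and 4.58 TPM in the MEFs, 3.04 and 5.55 TPM in the untreated lines, and 12.8 and 19.0 TPM with rapamycin. The lines differed in level for both, and both calls were lost without the line in the fit.

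Il1rl1 (chr1:40429570-40465415), which encodes the interleukin-33 receptor ST2, had the largest loss change of these genes. It was at 375 TPM in Tsc2+/+ MEFs against 4.69 TPM in Tsc2-/- MEFs, a loss change of -6.36, and at 2.88 and 2.10 TPM in untreated MKOC and TJ against 16.2 and 7.27 TPM with rapamycin. Its rise of 2.04 ± 0.23 (edgeR adjusted p = 0.000189) was not called without the line, and it reached the kidney floor only with rapamycin. Tcp11l2 (chr10:84576626-84614359) had 7.98 and 2.35 TPM in the MEFs, 1.08 and 1.92 TPM in the untreated lines, and 5.96 and 9.76 TPM with rapamycin. Other members act outside interferon responses. Crebrf, a regulator of energy balance, had a loss change of -1.33 and a rapamycin change of 2.14, Fbxo32, the ubiquitin ligase atrogin-1, -1.36 and 1.90, and Pink1, the kinase that marks damaged mitochondria, -1.05 and 1.45. Lpin1, a phosphatidate phosphatase, was at -2.03 and 1.17, and Fas, a death receptor, at -1.93 and 1.53.

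The genes up in both contrasts included Ctgf and Thbs1, which encode matrix-associated proteins. Ctgf, a matricellular CCN protein, had 3 counts in Tsc2+/+ MEFs (0.0431 TPM) against 52.1 TPM in Tsc2-/- MEFs, a ratio after scaling of 923 (95% counting interval 315 to 4479). It had 19.8 and 26.3 TPM in untreated MKOC and TJ and 145 and 112 TPM with rapamycin, a rise of 2.47 ± 0.17 (edgeR adjusted p = 1.18e-05). Thbs1, which encodes the matrix protein thrombospondin-1, had 9.63 and 165 TPM in the MEFs, 204 and 198 TPM in the untreated lines, and 740 and 688 TPM with rapamycin. For these genes rapamycin moved the kidney lines in the direction in which Tsc2-/- MEFs already differed.

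Edn1, the vasoconstrictor endothelin-1, had 1 count in Tsc2+/+ MEFs against 8.63 TPM in Tsc2-/- MEFs, and its level of 13.0 and 32.2 TPM in untreated MKOC and TJ stood at 43.9 and 120 TPM with rapamycin. Bmp4, a ligand of the BMP pathway, had 4.38 and 48.6 TPM in the MEFs, 4.15 and 4.35 TPM in the untreated lines, and 14.0 and 14.6 TPM with rapamycin. Smpd3, a neutral sphingomyelinase, and Slco2a1, a prostaglandin transporter, had rapamycin changes of 1.77 and 1.51, Kank3 1.62, and Ankrd1, a transcriptional cofactor induced by YAP, 1.48. All 6 were called higher, and only Edn1 was not called without the line. Egfr, the receptor of epidermal growth factor, had 0.0353 and 27.0 TPM in the MEFs, 1.07 and 1.71 TPM in the untreated lines, and 4.09 and 6.84 TPM with rapamycin. Krt7, an epithelial keratin, was the sole compared cell type marker in any of the 4 classes, and most markers were not compared and could enter none.

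The 14 genes down in both were the smallest class. Adh7, an alcohol dehydrogenase that oxidizes retinol, had 123 and 1.36 TPM in Tsc2+/+ and Tsc2-/- MEFs, 41.1 and 39.5 TPM in untreated MKOC and TJ, and 13.2 and 14.2 TPM with rapamycin. Gsta4, a glutathione transferase for products of lipid peroxidation, had 3722 and 582 TPM in the MEFs, 25.9 and 28.3 TPM in the untreated lines, and 9.51 and 10.8 TPM with rapamycin. Stbd1, a glycogen-binding protein, had 134 and 65.8 TPM in the MEFs, 97.2 and 98.5 TPM in the untreated lines, and 30.5 and 25.7 TPM with rapamycin. In these 3 genes the levels of MKOC and TJ were alike within each treatment. Cox6a2, a subunit of cytochrome oxidase, had changes of -1.59 and -2.36, Fam171b -1.66 and -1.70, and Hid1, a protein of secretory granule formation, -1.24 and -1.28. Cbr2, a carbonyl reductase, had changes of -1.42 and -1.57, but its level differed between untreated MKOC (11.9 TPM) and TJ (57.9 TPM), and its call was lost without the line.

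The classes were then read by pathway, in lists drawn up from known functions. Their counts and medians are to be read beside those of all compared genes, of which 11.3% were 2-fold higher and 6.1% 2-fold lower in Tsc2-/- MEFs and 17.5% were called higher and 21.6% lower with rapamycin. Of all 9409 tested, 201 were 2-fold higher with loss and called lower with rapamycin, and 174 the reverse. The median loss change of all compared genes was 0.07 and their median rapamycin change -0.03. Without scaling the median loss change of all compared genes was 0.44, and the median of a list without scaling is given where its sign changed. The ER chaperone list, with 6 of 17 genes called lower (1 without the line), had a median loss change of -0.20, which was 0.19 without scaling, and a median rapamycin change of -0.13.

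Of the list of glycolysis and lactate export, 7 of 21 genes were both 2-fold higher in Tsc2-/- MEFs and called lower with rapamycin. All 21 genes were compared, 18 were called lower with rapamycin and none higher, and 8 were at least 2-fold higher in Tsc2-/- MEFs and none 2-fold lower. The 7 were Slc16a3, Aldoc, Tpi1, Hk2, Gapdh, Pgam1 and Pfkl. The median loss change was 0.63 and the median rapamycin change -1.16. Tpi1, which interconverts the triose phosphates, had 184 and 782 TPM in Tsc2+/+ and Tsc2-/- MEFs, 1229 and 1470 TPM in untreated MKOC and TJ, and 375 and 577 TPM with rapamycin. Pfkl, a phosphofructokinase, had 29.3 and 83.3 TPM in the MEFs, 70.1 and 82.8 TPM in the untreated lines, and 14.8 and 34.2 TPM with rapamycin. Hk2, the hexokinase at the first step, had 10.3 and 41.4 TPM, 40.8 and 43.9 TPM, and 24.8 and 28.2 TPM in the same order. Opposition did not extend over the whole list. Pgk1 and Pdk1, which encode a glycolytic kinase and an inhibitor of pyruvate oxidation, were called lower with rapamycin at loss changes of -0.31 and -0.38. Ldha, the lactate dehydrogenase subunit, fell by 1.79 ± 0.13 (edgeR adjusted p = 1.67e-05) with a loss change of 0.70. Pgam1 and Gapdh have many processed pseudogenes, so their values are uncertain. Without the line in the fit 14 of the list were called lower, and Pfkl and Aldoc were among those lost.

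The hypoxia list holds targets and regulators of HIF, and 4 of its members were both 2-fold higher in Tsc2-/- MEFs and called lower. Of 16 compared genes 12 were called lower and 1 higher, 5 were 2-fold higher in Tsc2-/- MEFs and 1 2-fold lower, and the medians were 0.61 and -0.85. In the fit without the line 7 were called lower and none higher. Hif1a, the oxygen-regulated subunit, had 83.3 and 178 TPM in the MEFs, 225 and 327 TPM in untreated MKOC and TJ, and 87.7 and 114 TPM with rapamycin. Adm and Car9 went against the list. Adm, the vasodilator peptide adrenomedullin, was higher in Tsc2-/- MEFs by 3.25 and rose with rapamycin by 0.44 ± 0.10 (edgeR adjusted p = 0.00598). Car9, a carbonic anhydrase, had 5.60 and 2.48 TPM in the MEFs and fell with rapamycin from 16.6 and 32.0 TPM to 6.96 and 9.90 TPM. Neither call was made without the line.

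The ATF4 list showed a rapamycin change without a common loss change. Of 15 compared genes 14 were called lower (11 without the line) and none higher, with a median rapamycin change of -1.28, while the median loss change was 0.05 (-0.04 on counts scaled to library size in place of TPM). Atf4 itself had 479 and 648 TPM in Tsc2+/+ and Tsc2-/- MEFs, 575 and 568 TPM in untreated MKOC and TJ, and 309 and 250 TPM with rapamycin. Ddit3, the stress transcription factor CHOP, had 478 and 438 TPM in the MEFs, and went from 200 and 178 TPM to 24.1 and 27.4 TPM with rapamycin. Trib3, a pseudokinase, went from 218 and 180 TPM to 35.9 and 28.9 TPM, with 127 and 162 TPM in the MEFs. Ddit3 and Trib3 did not reach 2-fold between the MEFs despite rapamycin changes of -2.83 and -2.58, and 4 members were opposed at 2-fold with loss: Nupr1, Ddit4, Vldlr and Fgf21.

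Amino acid supply was alike. All 15 compared genes of amino acid synthesis and one-carbon metabolism were called lower with rapamycin (14 without the line), with a median of -1.40, and none reached 2-fold between the MEFs, with a median of 0.10. Psat1, of serine synthesis, had 282 and 487 TPM in the MEFs and went from 723 and 677 TPM to 313 and 245 TPM. Of 20 cytosolic aminoacyl-tRNA synthetases 19 were called lower and 1, Qars, higher (16 and none without the line), with medians of -0.09 for loss (0.29 without scaling) and -1.06 for rapamycin, and none reached 2-fold between the MEFs. Of 10 amino acid transporters 9 were called lower (6 without the line) with a median of -0.98, and 3 of them, Slc7a3, Slc7a11 and Slc38a1, were 2-fold higher in Tsc2-/- MEFs. The median loss change of the transporters was -0.35, and 0.04 without scaling.

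**Figure D4:**
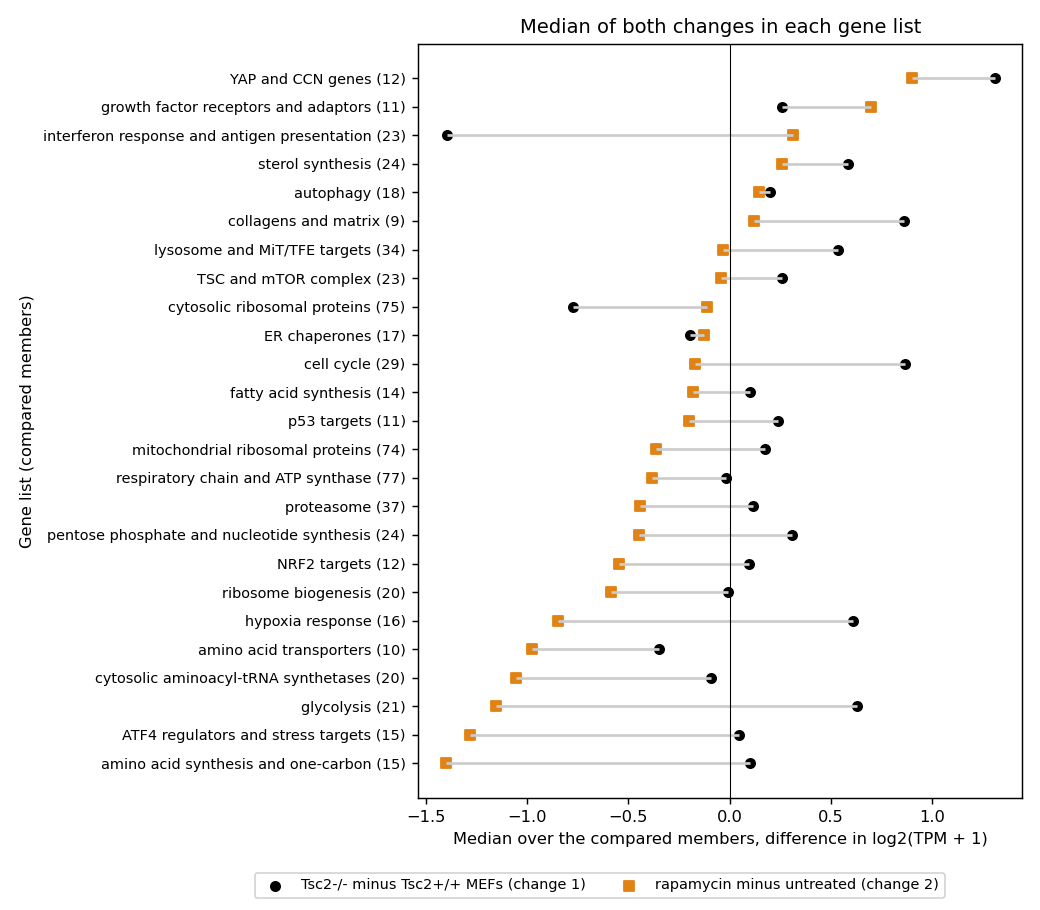
Median loss change (black circles) and median rapamycin change (orange squares) of the compared members of each list (y axis, with their number), as differences in log2(TPM + 1) on the x axis, for lists with at least 9 compared members. Glycolysis (0.63 and -1.16) and the hypoxia response (0.61 and -0.85) lay above 0 with loss and below 0 with rapamycin. Interferon genes (-1.40 and 0.32) were also opposed, below 0 with loss and above 0 with rapamycin. YAP and CCN genes (1.31 and 0.90) lay to the right in both.

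In the interferon and antigen presentation list, 8 of 23 compared genes were both 2-fold lower in Tsc2-/- MEFs and called higher with rapamycin, and 13 were not called with rapamycin. Of the 23 compared genes, 15 were at least 2-fold lower in Tsc2-/- MEFs and 2 higher, with a median of -1.40. With rapamycin 10 were called higher and none lower, with a median of 0.32. Irf7, a transcription factor of interferon genes, had 121 and 28.4 TPM in the MEFs, 12.4 and 21.9 TPM in untreated MKOC and TJ, and 34.4 and 39.9 TPM with rapamycin. Oasl2, an antiviral 2′-5′-oligoadenylate synthetase-like protein, had 389 and 67.6 TPM, 9.503 and 18.6 TPM, and 25.7 and 37.9 TPM in the same order. Irf9, a DNA-binding factor of the interferon response, had 110 and 46.4 TPM, 10.05 and 13.8 TPM, and 18.2 and 22.7 TPM. Tap1, a peptide transporter for antigen presentation, was 2.95 lower with loss, and its rapamycin difference of 0.05 ± 0.16 did not pass the test (edgeR adjusted p = 0.855). Ifih1, the RNA sensor MDA5, went the other way with loss, from 0.364 to 13.0 TPM. Without the line in the fit none of the list was called, by DESeq2 with the line 8 were called higher, and by limma 9.

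**Figure D5:**
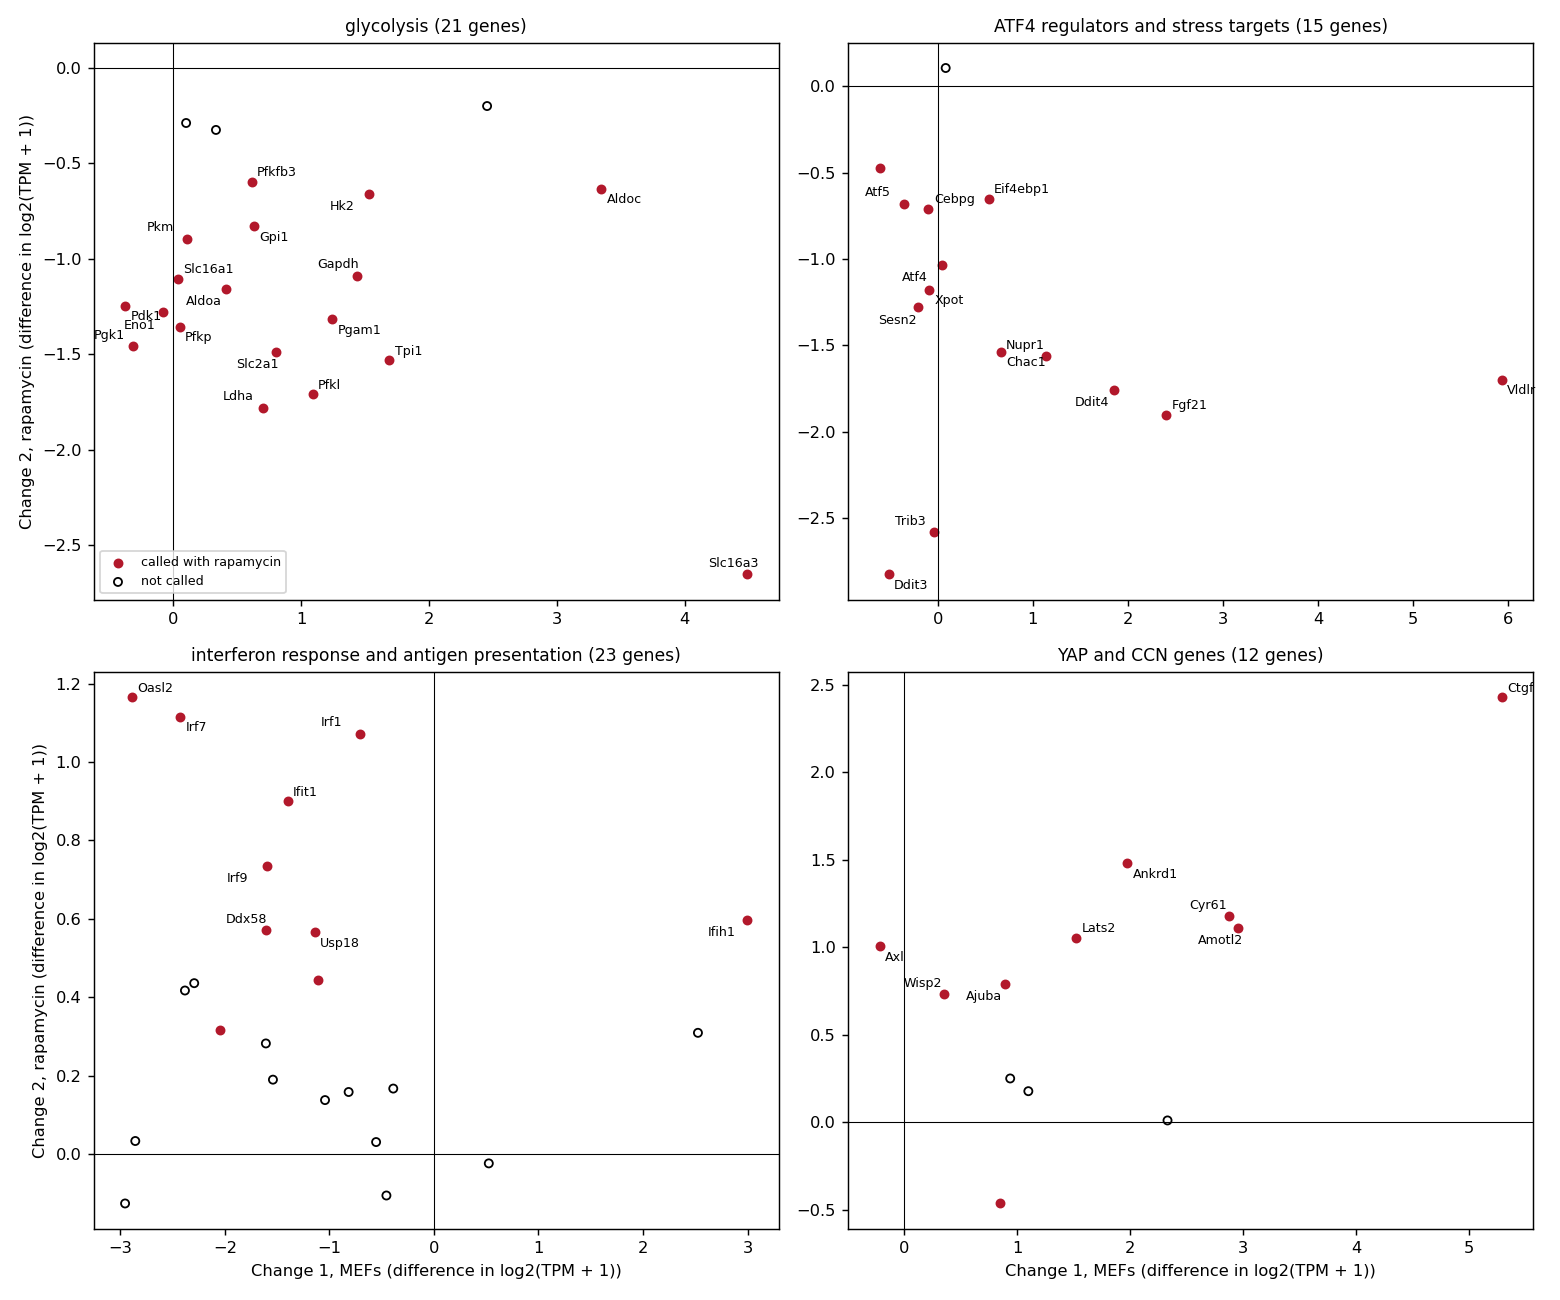
Members of 4 lists with the loss change on the x axis and the rapamycin change on the y axis (differences in log2(TPM + 1), each panel on its own scale), filled where edgeR called the gene with rapamycin, with its name if that change was at least 0.5 in size, and open where not called. Of 21 glycolysis genes 18 were called lower and 8 lay at or beyond 1 on the x axis. Most ATF4 genes lay near 0 on the x axis, interferon genes lay mainly at the upper left and YAP and CCN genes at the upper right.

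Of YAP targets and CCN genes, 5 were both 2-fold higher in Tsc2-/- MEFs and called higher with rapamycin, as were 259 of all 9409 compared genes tested. Of 12 compared genes 7 were 2-fold higher in Tsc2-/- MEFs and none lower, 8 were called higher with rapamycin and 1 lower (7 and none without the line), and the medians were 1.31 and 0.90. Cyr61, a CCN protein, had 13.6 and 139 TPM in the MEFs, 79.7 and 116 TPM in untreated MKOC and TJ, and 238 and 201 TPM with rapamycin. Amotl2, an angiomotin that restrains YAP, had 9.38 and 104 TPM, 44.3 and 50.5 TPM, and 88.4 and 121 TPM in the same order. Wwtr1, the YAP paralog TAZ, was the gene called lower, with a fall of 0.48 ± 0.11 (edgeR adjusted p = 0.00788) that was not called without the line.

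Growth factor receptors and their adaptors, which mTORC1 signalling is known to restrain, formed another list, with 3 members at 2-fold or more between the MEFs. Of 11 compared genes 10 were called higher and none lower with rapamycin (7 without the line, with Irs1, Erbb3 and Fgfr1 lost), with a median of 0.70, while the median loss change was 0.26. Erbb3 was the single member at least 2-fold lower in Tsc2-/- MEFs, with 5.31 and 1.69 TPM, and it had 9.23 and 10.3 TPM in untreated MKOC and TJ against 14.3 and 13.7 TPM with rapamycin. Irs2, the insulin receptor substrate, had 3.96 and 11.2 TPM in the MEFs, 6.31 and 5.73 TPM in the untreated lines, and 16.4 and 11.9 TPM with rapamycin. Its loss change was 0.94, short of 2-fold, and its rapamycin rise was 1.21 ± 0.13 (edgeR adjusted p = 0.00014).

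Genes of the TSC and mTOR complexes had medians of 0.26 and -0.04 (0.01 with the kidney libraries also scaled) over 23 compared genes, of which 2 were called higher and 7 lower (1 and 4 without the line). Deptor, an inhibitory subunit of mTOR complexes, had 8.79 and 2.65 TPM in the MEFs, 2.79 and 2.55 TPM in untreated MKOC and TJ, and 6.40 and 5.52 TPM with rapamycin, a rise of 1.15 ± 0.12 (edgeR adjusted p = 0.000137). Deptor and Ddit4, which both restrain mTORC1, were therefore opposed between the contrasts in opposite directions. Deptor reached the floor in the kidney lines only with rapamycin. Rragd, a Rag GTPase that recruits mTORC1 to the lysosome, had 1.40 and 10.5 TPM in the MEFs and a rapamycin change of -0.37, called lower only with the line in the fit.

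Lists of growth and biosynthesis were counted in the same way. Of 29 cell cycle genes 12 were 2-fold higher in Tsc2-/- MEFs and 1 lower (median 0.86), while 7 were called lower and 1 higher with rapamycin (median -0.17), so that 24.1% were called lower, near the 21.6% of all compared genes, and 2 genes without the line in the fit. Cyclin D1 (Ccnd1) was the gene called higher, at 1.89 and 0.73, a call lost without the line (edgeR adjusted p = 0.148). Of 24 sterol synthesis genes 5 were called higher and none lower with rapamycin (median 0.26), and the median loss change was 0.59. The share called higher, 20.8%, was near the background of 17.5%, and without the line 2 were called higher. Of 24 genes of the pentose phosphate pathway and nucleotide synthesis 17 were called lower (median -0.45), and 6 without the line in the fit. The median loss change of these 24 genes was 0.31, and 4 were 2-fold higher in Tsc2-/- MEFs, all of them called lower with rapamycin. The 1 gene that was 2-fold lower in Tsc2-/- MEFs was also called lower. Of 75 cytosolic ribosomal protein genes 23 were 2-fold lower in Tsc2-/- MEFs (median -0.78), and with rapamycin 5 were called lower and 3 higher, or none and 2 without the line (median -0.11, and 0.01 in TJ alone). These genes have many processed pseudogenes, so their values are uncertain.

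Lists of mitochondrial and protein turnover genes differed in their counts. Of 77 respiratory chain and ATP synthase genes 50 were called lower and 2 higher (median -0.38), with a median loss change of -0.02 that was 0.37 without scaling. Of 74 mitochondrial ribosomal proteins 39 were called lower (median -0.37), of 37 proteasome genes 28 (median -0.44) and of 20 ribosome biogenesis genes 16 (median -0.58). Without the line in the fit the numbers called lower were 25, 15, 13 and 11 in these lists. Their median loss changes were, from the mitochondrial ribosome on, 0.18, 0.12 and -0.01, the last being 0.38 without scaling. In the lysosome list the median loss change was 0.54 over 34 genes, with 2 called higher and 11 lower by rapamycin (none and 4 without the line) and a median rapamycin change of -0.03 that was 0.02 with the kidney libraries also scaled. Of 18 autophagy genes 7 were called higher and 2 lower (5 and 1 without the line), with medians of 0.20 for loss and 0.14 for rapamycin.

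The other lists are given by their counts. Of 12 targets of NRF2, the factor of the oxidative stress response, 9 were called lower (5 without the line) and none higher. With loss, 2 of the 9 were 2-fold higher and another 2 were 2-fold lower. The medians of the NRF2 list were 0.09 for loss (-0.10 on counts scaled to library size) and -0.55 for rapamycin. Of 14 fatty acid synthesis genes 1 was called higher and 4 lower (1 and 1 without the line), with medians of 0.10 and -0.18. Of 11 p53 targets 2 were called higher and 3 lower (none and 1 without the line), with medians of 0.24 and -0.20, in MEFs that lack p53. Of 9 compared collagen and matrix genes 2 were called higher and 1 lower (2 and none without the line), with medians of 0.86 and 0.12. Of 6 compared contractile genes 4 were called higher (3 without the line), with medians of 0.82 and 0.52. These medians leave out 11 of the 20 collagen and matrix genes and 6 of the 12 contractile genes listed, which were not compared. The IGF axis and the glucose sensing list, of 13 and 6 genes, had 5 compared genes each, with 1 called higher and 1 lower in each, and without the line no glucose sensing gene was called. Their medians for loss were 0.93 and 0.34 and for rapamycin -0.04 and 0.04, and the sign of both rapamycin medians turned on counts scaled to library size (0.08 and -0.04). The IGF median leaves out 8 genes under the floor in the kidney lines. Among these were Igf2, at 0.248 and 96.8 TPM in Tsc2+/+ and Tsc2-/- MEFs, and Igfbp5, at 0.0387 and 1141 TPM.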

How the data were processed

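RNA was extracted and prepared with a stranded mRNA kit, 1 library per condition and 6 in all. Reads were trimmed and quantified by the authors with Kallisto (version not given in the sources used here), and they deposited estimated counts and TPM, a length-corrected relative abundance, for 88198 transcripts, without normalization between libraries. The human reference named for Kallisto does not match the transcript identifiers, which are those of mouse. The authors also deposited a ratio, the fold change per transcript between the MEF genotypes, which was used only for its gene symbols and not for its values. A symbol was missing for 1006 transcripts (0.372% to 0.468% of counts, left out), the first of 2 symbols was taken for 8 transcripts, and 25 symbols were written as dates and kept. Positions were taken from GENCODE M21 (GRCm38) by transcript identifier, and promoters from RefSeq (GRCm38.p6) by symbol or unique synonym, for 7540 of the 9423 compared genes.

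TPM and estimated counts were summed per symbol and samples were grouped by their labels. Changes were taken on log2(TPM + 1), which understates the change of low genes. For rapamycin, the rounded counts of the 12952 symbols that passed filterByExpr entered edgeR's quasi-likelihood test with TMM factors and Benjamini-Hochberg adjustment. The line was a block because the labels name the line of each library, and the deviations of libraries of 1 line from the treatment means had a correlation of 0.56. Intervals and floors (3 counts, 95%) cover counting error only. The members and the 34 gene lists were chosen with earlier results of these data known. The genes named are Tsc2, the 8 genes per class with the largest smaller change among those called and moving the same way in both lines, and up to 6 members per list, besides other members of classes and lists chosen after their values were seen. The opposed classes and the edgeR fit were tested on simulated data. Alternatives were other pseudocounts, floors, thresholds, scalings and units, DESeq2, limma, other size factors, no filter, no block and single lines. The versions were edgeR 4.0.16, DESeq2 1.42.0 and limma 3.58.1 under R 4.3.3, and pandas 2.3.3, numpy 2.4.6, matplotlib 3.10.9 and scipy 1.17.1 under Python 3.11.15.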

Additional observations from a re-analysis of the deposited data

Results flagged for a closer look

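The correlation over genes of the loss change with the rapamycin change was below 0 in MKOC (r = -0.083) and above 0 in TJ (r = 0.035). The lines were set apart here because the sign differed between them. The difference was not tested, and both values are small.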

How the results depend on the processing

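Counts of genes past a threshold moved with it. Opposed and same-direction genes numbered 78 and 66 as reported, 33 and 29 with a pseudocount of 5 TPM, 35 and 31 with a floor of 20 TPM, 396 and 326 at 1.5-fold and 4 and 2 at 4-fold, and with each line past the threshold 52 genes were opposed and 37 moved the same way. With 1 line left out, opposed genes ranged from 74 to 97, same-direction genes from 64 to 77 and r from -0.08 to 0.04. A single line has no residual degrees of freedom, so no rapamycin test was made without the other. Without the replicate block, calls among compared genes fell from 3683 to 1123, the share of loss-raised genes called lower was 5.79% and that of loss-lowered genes called higher 8.60%, and of the rapamycin calls of the 32 genes named by class 7 were lost (Slc16a3, Ddit4, Il1rl1, Ifi27l2a, Zbp1, Edn1 and Cbr2). With a 2-fold minimum for a call these values were 409, 3.42% and 9.82%. DESeq2 called 2635 compared genes and limma 2899. Without mitochondrial and short transcripts the classes of 32 and 46 genes became 27 and 58. Opposed genes numbered 67 without predicted genes, pseudogenes, mitochondrial and ribosomal protein genes, and 60 with the floor set on the means of the MEF and of the kidney libraries, both chosen after seeing the data. No rapamycin or loss change of the 32 genes named by class changed sign under the alternatives run, but several comparisons of counts turned: opposed and same-direction genes numbered 95 and 96 with a floor of 1 TPM and 74 and 77 without MKOC, the classes of 32 and 46 genes became 48 and 37 without scaling, 19 and 16 with a floor of 20 TPM and 18 and 15 with a pseudocount of 5 TPM, and r was 0.02 with that floor. With 2-fold calls the background was 1.96% lower and 2.39% higher. The loss change rests on 1 library per genotype, and no depth of sequencing gives it an error.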
